A study of Mus musculus with 2 samples.

Results

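The 7 genes Tet2, Dnmt3a, Asxl1, Jak2, Trp53, Ppm1d and Ezh2 were followed across the stem, myeloid, erythroid and lymphoid cells of mouse bone marrow. The first 6 were chosen because their mutation drives clonal expansion of blood cells, and Ezh2 was added as an epigenetic driver of the same kind. The rule itself uses no measured value, although the genes were chosen with earlier results of these data known. All 7 were found by symbol among the 31053 genes counted. The marrow came from C57BL/6 mice aged 6 months and labelled with atherosclerosis. One library was from Apoe(-/-), Itgb3(-/-) mice, which lack both apolipoprotein E and integrin beta 3, and is called the null-labelled library. The other was from Apoe(-/-), Itgb3(+/+) mice, which lack apolipoprotein E alone, and is called the control-labelled library. Both groups therefore carry the loss of Apoe, and the labels restrict neither loss to a cell type. Each genotype had 1 library, and the sources used here do not give how many mice each drew on, so no test between genotypes was possible and none was made.

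Clonal hematopoiesis is the outgrowth of 1 mutated blood stem cell and its progeny. TET2 oxidizes methylated cytosine and DNMT3A adds new methyl groups to DNA, so the genes most often mutated act on the same mark in opposite ways. ASXL1 binds the deubiquitinase BAP1 and works with Polycomb, whose catalytic subunit EZH2 methylates histone H3 at repressed genes. JAK2 is the kinase that passes on signals from the receptors for erythropoietin, thrombopoietin and interferon gamma. The tumor suppressor p53, encoded by Trp53, halts or kills damaged cells, and the phosphatase PPM1D switches that response off.

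The null-labelled library held 4281 barcodes and 44694854 unique molecular identifiers (UMIs, each counting 1 captured RNA molecule), and the control-labelled library held 12764 barcodes and 79192158 UMIs. Cells with under 200 genes or over 10% mitochondrial UMIs and those with the highest doublet scores were removed. This left 2903 cells with a median of 9311 UMIs in the null-labelled library, against 8595 cells with a median of 4808 UMIs in the control-labelled library. The targeted gene Itgb3 stood at 7.43 counts per 1000000 UMIs (CPM) in null-labelled cells and 23.6 CPM in control-labelled cells, 3.17-fold lower (2.77 to 3.64). In the stem and progenitor class it went against the label, at 39.1 CPM in null-labelled cells against 18.0 CPM in control-labelled cells. Of the other classes described below, it was lower with its whole interval in GMP-like, immature neutrophil-like and monocyte-like cells. In the erythroid-like, B, T and NK-like and mixed-stage neutrophil-like classes the interval included 1. The all-cell values also hold cells outside these classes, whose part in the 3.17-fold was not tested. The Itgb3 values are counts of 3′ ends. The sources used here do not say where the deletion lies, so these values check the label only if it removes the counted end. Apoe, absent by label from both groups, was counted at 62.5 CPM in null-labelled cells and 99.5 CPM in control-labelled cells. Both libraries held 11 barcodes in common, 6 of them among the kept cells. An interferon response list stood higher past 2-fold in 18 of its 18 genes over all null-labelled cells, up to 289-fold for Cxcl10. Depth, this response and the genotype cannot be told apart with 1 library each, and their part in the values below was not tested.

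Cells were grouped by clustering without the 7 genes, and each sub-cluster took a name ending in "-like" from fixed markers. In 144 of 152 sub-clusters 1 library supplied at least 90% of the cells, so each class below joins sub-clusters that are mostly of 1 library. At least 50 cells of both libraries fell in 10 classes. The stem and progenitor class (HSPC-like) held 61 null-labelled cells, of clusters 9 and 13, and 50 control-labelled cells, of cluster 13. The granulocyte-monocyte progenitor class (GMP-like) held 61 null-labelled cells, almost all of cluster 9, and 359 control-labelled cells, of clusters 17 and 24. The classes are rebuilt from markers and are not the submitters' own.

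Among myeloid cells, the immature neutrophil-like class held 440 null-labelled cells, of cluster 7, and 1375 control-labelled cells, mainly of clusters 28, 23 and 27. A further neutrophil class, called mixed-stage, carried markers of immature and mature cells together and held 223 null-labelled cells, of cluster 3, and 475 control-labelled cells, of clusters 29 and 32. Monocyte-like cells numbered 158 in the null-labelled library, of cluster 9, and 569 in the control-labelled library, of clusters 30 and 24. Neutrophils with mature markers in the lead were 0 in the null-labelled library and 1085 in the control-labelled library, and were not compared.

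The erythroid-like class held 962 null-labelled cells, led by clusters 6 and 5, and 2112 control-labelled cells, led by cluster 11. In the B lineage there were 149 null-labelled and 617 control-labelled precursor-like cells, the null-labelled ones of cluster 2 and the control-labelled ones of clusters 19, 25 and 31. Mature B-like cells numbered 393 in the null-labelled library, mainly of cluster 8, and 946 in the control-labelled library, mainly of clusters 21 and 20. Mixed-stage B-like cells numbered 144 null-labelled, of cluster 2, and 377 control-labelled, mainly of cluster 19. There were 183 null-labelled T and NK-like cells, of cluster 12, and 280 control-labelled ones, of clusters 26 and 33. Of the 85 fixed markers of the named classes, 79 in the null-labelled library and 80 in the control-labelled library peaked in their own class or its mixed-stage neighbour, and 1 monocyte marker was at 0 in null-labelled monocyte-like cells. For the GMP-like class 5 of 8 markers did so in both libraries. Apart from the hemoglobin genes, these markers also named the sub-clusters, so the counts are no independent check of the names.

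The promoters of the 4 genes with the most calls by class (Ezh2, Trp53, Tet2 and Jak2) are shown so that the sequence next to each start can be read beside the values. They come from RefSeq on build GRCm38.p6, span 250 bases before to 50 after the annotated start, and are written 5′ to 3′ on the gene's own strand. Capitals mark matches to CCAAT or its reverse complement and to the E2F-type word TTTGGCGC. The Ezh2 window is chr6:47594981-47595280 on the minus strand, Trp53 is chr11:69580109-69580408 on the plus strand, Jak2 is chr19:29251553-29251852 on the plus strand and Tet2 is chr3:133544341-133544640 on the minus strand.
Ezh2: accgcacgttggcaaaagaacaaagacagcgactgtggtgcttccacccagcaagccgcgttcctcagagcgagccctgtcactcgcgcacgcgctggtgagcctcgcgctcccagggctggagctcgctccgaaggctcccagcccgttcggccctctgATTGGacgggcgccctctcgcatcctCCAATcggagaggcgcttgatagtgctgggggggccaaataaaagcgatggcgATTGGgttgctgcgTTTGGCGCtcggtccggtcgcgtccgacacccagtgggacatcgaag
Trp53: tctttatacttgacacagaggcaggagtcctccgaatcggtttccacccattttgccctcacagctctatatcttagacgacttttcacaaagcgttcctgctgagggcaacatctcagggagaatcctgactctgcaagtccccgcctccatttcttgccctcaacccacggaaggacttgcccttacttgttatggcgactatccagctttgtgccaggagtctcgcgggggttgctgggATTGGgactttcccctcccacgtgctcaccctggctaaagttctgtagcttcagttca
Jak2: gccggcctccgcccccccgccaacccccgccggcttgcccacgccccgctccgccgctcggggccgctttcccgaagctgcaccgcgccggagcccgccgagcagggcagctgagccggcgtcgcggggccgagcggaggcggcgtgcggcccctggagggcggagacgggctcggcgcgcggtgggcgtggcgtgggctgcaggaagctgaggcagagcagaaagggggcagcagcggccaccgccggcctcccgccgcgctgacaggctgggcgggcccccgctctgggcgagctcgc
Tet2: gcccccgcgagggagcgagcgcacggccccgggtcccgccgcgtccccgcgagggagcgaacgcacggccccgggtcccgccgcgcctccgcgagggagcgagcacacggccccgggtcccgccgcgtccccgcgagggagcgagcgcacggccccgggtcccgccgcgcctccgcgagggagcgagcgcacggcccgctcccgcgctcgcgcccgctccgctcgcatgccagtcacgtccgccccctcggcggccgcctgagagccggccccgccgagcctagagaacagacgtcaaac

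The 4 windows differ in composition, with 64.3% G and C bases for Ezh2, 52.7% for Trp53, 81.0% for Jak2 and 81.3% for Tet2, against a median of 52.7% over all promoters. The search covered 5 motifs on both strands: E2F-type TTTGGCGC, CCAAT, the STAT site TTCNNNGAA, the interferon regulatory factor core AANNGAAA and the cyclic AMP element TGACGTCA. The Ezh2 window held 1 E2F-type word and 3 CCAAT boxes, and the Trp53 window held 1 CCAAT box. The windows of Jak2, Tet2 and all 3 Dnmt3a entries held none of the 5 motifs, which says only that these letters are not there. Ppm1d had 1 CCAAT box and 1 cyclic AMP element, and Asxl1 had 1 interferon regulatory factor core. Over 32851 promoters, the E2F-type word was found in 0.514%, CCAAT in 37.4%, TTCNNNGAA in 8.30%, AANNGAAA in 23.9% and TGACGTCA in 1.79%. No motif overlapped another in the sequences shown, and a match is a description of letters, not of a bound site.

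On build GRCm38 with GENCODE vM21 genes, Tet2 lies on chromosome 3 from 133463679 to 133545139 and Ezh2 on chromosome 6 from 47530139 to 47595341, both on the minus strand. On the plus strand lie Dnmt3a on chromosome 12 from 3806007 to 3914443, Asxl1 on chromosome 2 from 153345829 to 153404007 and Jak2 on chromosome 19 from 29251828 to 29313080. Trp53 lies on chromosome 11 from 69580359 to 69591873 and Ppm1d on the same chromosome from 85311244 to 85347066, both on the plus strand. Genes on the opposite strand overlap Tet2 (Gm42567), Dnmt3a (Dnmt3aos), Asxl1 (2500004C02Rik) and Ezh2 (Gm26625 and Gm44282). The sources used here do not say whether counting used the strand, so reads of these pairs could be shared. The annotation also holds a processed pseudogene each for Trp53 and Dnmt3a, which was not counted here.

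Levels below are UMIs of the gene per 1000000 UMIs summed over the cells of a class. Ranges in parentheses are exact 95% intervals that cover counting error only, since cells of 1 library are not replicates. A gene is called higher or lower where the null-labelled level is at least 2-fold above or below the control-labelled level with 30 or more UMIs over both libraries. Levels of different genes are not compared, because 3′ counts depend on each gene's end.

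Over all kept cells, Tet2 and Jak2 were higher and Ezh2 was lower in the null-labelled library, and the other 4 genes were within 2-fold. Among all 12997 genes with enough UMIs, 8.49% were called higher and 18.2% lower, so 2 of 7 higher (28.6%) stands above the background and 1 of 7 lower (14.3%) near it. The median gene was itself shifted by -0.24 on the log2 scale. By class, 67 of the 70 pairs of gene and class had enough UMIs, of which 15 were higher, 18 lower and 34 within 2-fold. The 3 others, of Trp53, Ppm1d and Ezh2 in mixed-stage neutrophil-like cells, had too few UMIs to call.

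In the progenitor classes, 1 member was higher and 3 were lower in HSPC-like cells, against backgrounds of 10.0% and 8.93%. GMP-like cells had 1 higher and 2 lower, against 10.3% and 11.2%. The lower share, 42.9% and 28.6%, stood above the background in both. Immature neutrophil-like cells had 1 higher and 2 lower, against 9.64% and 13.6%, and monocyte-like cells had 2 higher and 2 lower, against 12.0% and 20.9%. Of the 4 members with enough UMIs in mixed-stage neutrophil-like cells, 2 were higher and 0 lower, against 26.5% and 10.6%. With 4 to 7 genes, 1 call moves these shares by 14.3 points or more, so counts of 1 in a class were near the background.

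Erythroid-like cells had 3 higher members and 1 lower, against 5.21% and 49.9%, so 42.9% of the members were higher and 14.3% lower. The median gene of that class was shifted most among the 10, by -0.997 on the log2 scale. B precursor-like cells had 2 higher and 2 lower, against 7.42% and 13.5%, and mature B-like cells had 2 higher and 2 lower, against 10.0% and 17.1%. Mixed-stage B-like cells had 1 higher and 2 lower, against 12.7% and 8.03%, and T and NK-like cells had 0 higher and 2 lower, against 7.62% and 12.6%. The calls came from few genes, since Tet2 and Jak2 made 12 of the 15 higher calls and Ezh2 and Trp53 made 16 of the 18 lower ones. The median gene was shifted by -0.20 in monocyte-like, -0.14 in B precursor-like, 0.35 in mixed-stage neutrophil-like and 0.20 in mixed-stage B-like cells, and by 0.10 or less in size in the other 5 classes.

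**Figure D1:**
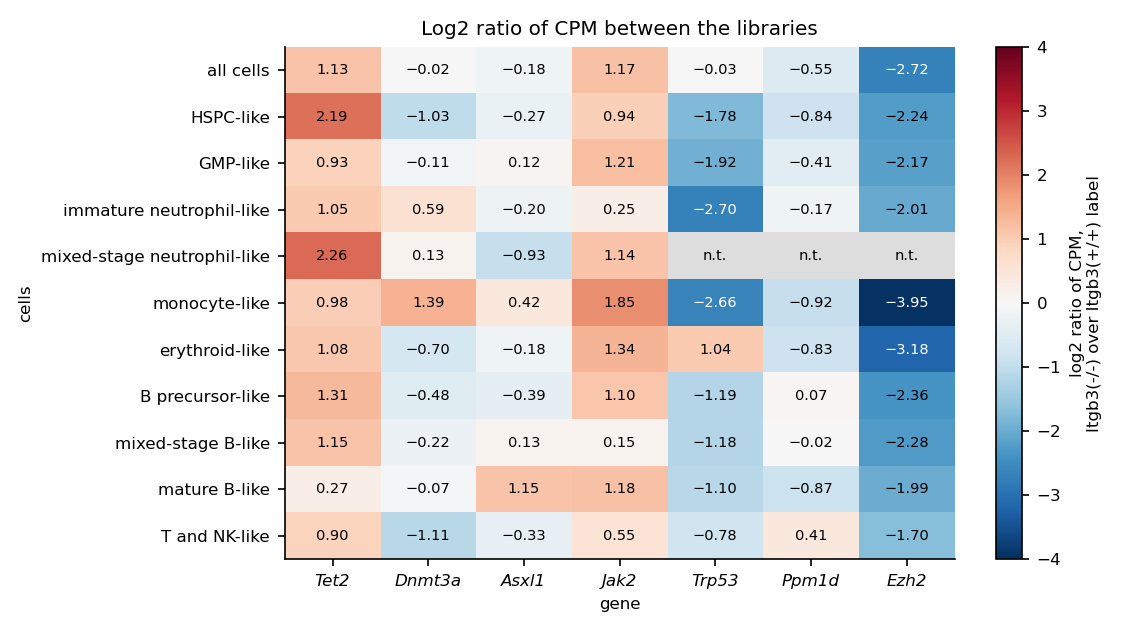
Log2 ratio of CPM, null-labelled over control-labelled library, for each of the 7 genes (columns) over all cells and in each class (rows), with n.t. where the gene had under 30 UMIs. Ezh2 is blue in every class with a value, Tet2 is red in every class, and Trp53 is red in erythroid-like cells alone.

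Tet2, the 5-methylcytosine dioxygenase, was higher in the null-labelled library, at 47.4 CPM (45.1 to 49.8) from 1587 UMIs in null-labelled cells against 21.7 CPM (20.5 to 22.9) from 1280 UMIs in control-labelled cells, a ratio of 2.18 (2.03 to 2.35). The direction was the same in 10 of 10 classes, with the interval of the ratio above 1 in 9 and a ratio of 2 or more in 6. It was 4.77-fold higher (3.56 to 6.50) in mixed-stage neutrophil-like cells, at 138 CPM in null-labelled and 28.9 CPM in control-labelled cells. HSPC-like cells came next, at 74.6 CPM in null-labelled and 16.4 CPM in control-labelled cells, a ratio of 4.56 (2.40 to 9.75) that rests on 124 UMIs in null-labelled and 10 UMIs in control-labelled cells. Mature B-like cells differed least and within counting error, at 62.7 CPM in null-labelled and 52.1 CPM in control-labelled cells, a ratio of 1.20 (0.949 to 1.53).

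The remaining classes lay between these. In B precursor-like cells Tet2 stood at 46.9 CPM in null-labelled and 18.9 CPM in control-labelled cells, and in immature neutrophil-like cells at 43.0 CPM in null-labelled and 20.7 CPM in control-labelled cells. Monocyte-like cells had 119 CPM in null-labelled and 59.96 CPM in control-labelled cells (1.98-fold, 1.69 to 2.32), just short of the 2-fold line. Mixed-stage B-like cells were just past it, at 76.0 CPM in null-labelled and 34.2 CPM in control-labelled cells, and dropped under it with TMM scaling factors (log2 ratio 0.95, against 1.15), which remove the shift of the middle genes, and with hemoglobin left out of the total (0.91). In that class hemoglobin took 1.82% of the UMIs in null-labelled and 16.9% in control-labelled cells. GMP-like cells had 43.6 CPM in null-labelled and 22.9 CPM in control-labelled cells, and T and NK-like cells 70.7 CPM in null-labelled and 38.0 CPM in control-labelled cells. Erythroid-like cells had the lowest Tet2 level of any class in both libraries, 4.63 CPM in null-labelled and 2.19 CPM in control-labelled cells. Calls of 2-fold ended for immature neutrophil-like cells when cells were thinned to 1000 UMIs (log2 ratio 0.88), for erythroid-like cells with at most 5% mitochondrial UMIs (0.84) and for B precursor-like cells when each cell was classed by its own markers (0.65), with the direction kept.

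The spread of Tet2 across classes was 29.8-fold in the null-labelled and 27.3-fold in the control-labelled library, but the order differed. In null-labelled cells the mixed-stage neutrophil-like and monocyte-like classes led, with overlapping intervals (120 to 157 and 106 to 133 CPM), and no other class overlapped them. The place of monocyte-like cells rests on 1 of its 3 sub-clusters, with 235 CPM in the sub-cluster led by MHC class II genes against 79.8 and 83.6 CPM in the other 2. Without it the log2 ratio of that class was 0.44 against 0.98, and with each cell classed by its own markers it was 0.37. Monocyte-like and mature B-like cells led in the control-labelled library, with overlapping intervals, and mixed-stage neutrophil-like cells ranked near the middle of the 10. Within the neutrophil class with mixed markers, the 4 null-labelled sub-clusters ranged from 78.7 to 235 CPM and the 5 control-labelled ones from 10.2 to 38.4 CPM, with no overlap. Sub-clusters of 1 library share its RNA and are not replicates.

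Dnmt3a, the de novo DNA methyltransferase, showed no difference beyond counting error over all cells, at 16.4 CPM (15.1 to 17.9) in null-labelled and 16.7 CPM (15.6 to 17.7) in control-labelled cells, a ratio of 0.986 (0.886 to 1.10) that moved to the other side of 1 under TMM factors. Beneath that average the classes went apart. It was higher in monocyte-like cells, at 28.2 CPM in null-labelled and 10.8 CPM in control-labelled cells (2.62-fold, 1.82 to 3.77). The 3 null-labelled sub-clusters of that class (22.9 to 34.6 CPM) lay within the range of the 7 control-labelled ones (1.55 to 38.2 CPM). Dnmt3a was lower in T and NK-like cells, at 21.3 CPM in null-labelled and 46.1 CPM in control-labelled cells (2.16-fold lower, 1.36 to 3.48), and in HSPC-like cells, at 28.9 CPM in null-labelled and 58.9 CPM in control-labelled cells (2.04-fold lower, 1.29 to 3.21). The HSPC-like value rests on 48 UMIs in null-labelled and 36 UMIs in control-labelled cells. Its direction turned round when each cell was classed by its own markers without clusters, to a log2 ratio of 0.44. That grouping was mostly of other cells, with 400 null-labelled and 181 control-labelled cells. Only 51 and 39 of them were in the HSPC-like class as clustered. The T and NK-like call ended at -0.97 without the 10 deepest cells of each library.

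Immature neutrophil-like cells had 15.3 CPM of Dnmt3a in null-labelled and 10.1 CPM in control-labelled cells, a ratio of 1.51 (1.16 to 1.97) within the 2-fold band. The intervals of the 6 remaining ratios included 1. In both libraries Dnmt3a was lowest in erythroid-like cells, at 1.76 CPM in null-labelled and 2.85 CPM in control-labelled cells. In null-labelled cells the order had no step between lymphoid and myeloid classes, with monocyte-like cells at 28.2 CPM standing within the interval of HSPC-like cells. In control-labelled cells stem, B and T classes held the 5 highest levels (40.5 to 58.9 CPM), and the next class, mixed-stage neutrophil-like cells at 17.2 CPM, did not overlap them.

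Among 12 other genes of DNA methylation with enough UMIs, 0 were higher and 5 lower over all cells, against 8.49% and 18.2% of all genes. Their median log2 ratio was -0.56 against -0.24 for all genes. Dnmt1, which copies methylation after replication, stood at 48.7 CPM in null-labelled and 123 CPM in control-labelled cells. Its partner Uhrf1 had 40.2 CPM in null-labelled and 93.6 CPM in control-labelled cells. Tet1 had 1.37 CPM in null-labelled and 3.36 CPM in control-labelled cells. Idh1, whose product 2-oxoglutarate feeds TET enzymes, had 5.28 CPM in null-labelled and 30.4 CPM in control-labelled cells. The mitochondrial Idh2 had 21.0 CPM in null-labelled and 64.4 CPM in control-labelled cells. The methyl-CpG binder Mbd2, the most counted gene of the list, was level at 171.5 CPM in null-labelled and 171.0 CPM in control-labelled cells. Dnmt1 and Uhrf1 are S-phase genes, and the share of proliferating cells, given below for 6 classes, was 23.9% in null-labelled and 31.0% in control-labelled cells; its part in these values was not tested.

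**Figure D2:**
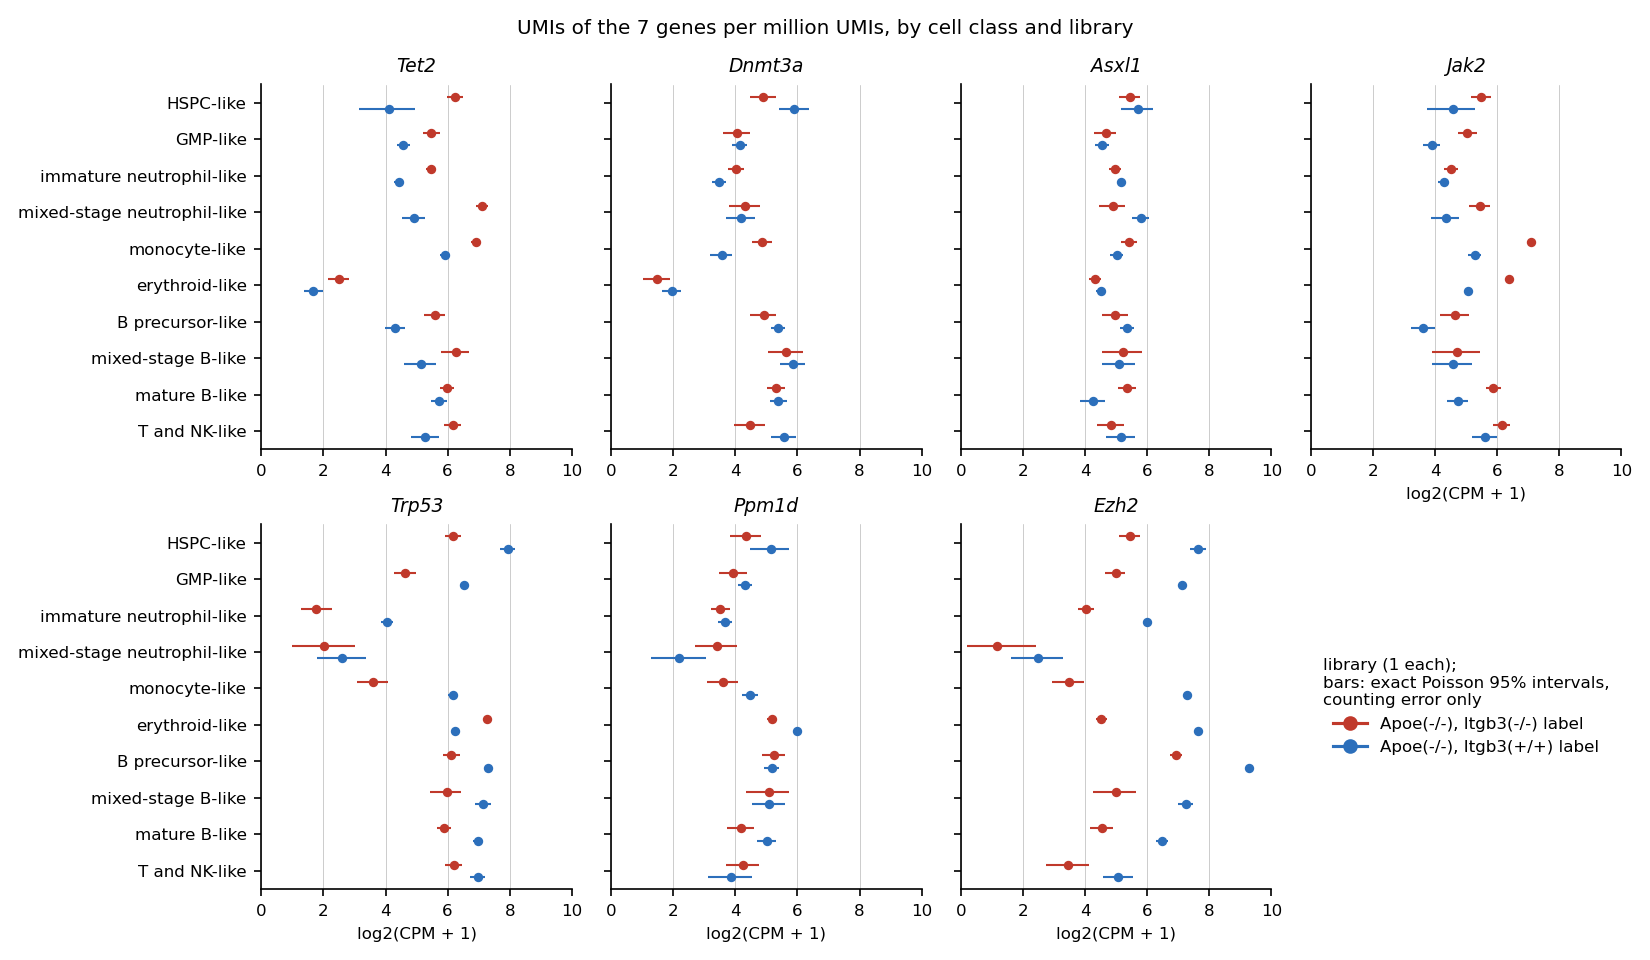
Level of each of the 7 genes as log2(CPM + 1) in each class, with the null-labelled library in red above the control-labelled library in blue and bars for exact 95% counting intervals. Tet2 and Dnmt3a sit lowest in erythroid-like cells in both libraries, and the red Ezh2 points lie left of the blue ones, which peak at 619 CPM in control-labelled B precursor-like cells.

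Ezh2, the histone H3 methyltransferase of Polycomb repressive complex 2, showed the largest difference of the 7 genes over all cells. It stood at 24.4 CPM (22.8 to 26.2) from 819 UMIs in null-labelled cells against 161 CPM (157 to 164) from 9482 UMIs in control-labelled cells, 6.57-fold lower (6.12 to 7.07). It was called lower in 9 of the 9 classes with enough UMIs. The smallest difference was in T and NK-like cells, at 10.0 CPM in null-labelled and 32.6 CPM in control-labelled cells (3.25-fold lower, 1.74 to 6.398). The largest was in monocyte-like cells, at 10.0 CPM in null-labelled and 155 CPM in control-labelled cells (15.4-fold lower, 10.4 to 23.7).

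B precursor-like cells held the most Ezh2 in both libraries, 121 CPM in null-labelled and 619 CPM in control-labelled cells (5.12-fold lower, 4.42 to 5.96). Erythroid-like cells had 21.9 CPM in null-labelled and 199 CPM in control-labelled cells, 9.08-fold lower (7.96 to 10.4). HSPC-like cells had 42.1 CPM in null-labelled and 199.5 CPM in control-labelled cells, and GMP-like cells had 30.5 CPM in null-labelled and 137 CPM in control-labelled cells. These classes, at 4.74-fold (3.504 to 6.45) and 4.51-fold (3.58 to 5.74) lower, overlapped the B precursor-like interval. Immature neutrophil-like cells had 15.4 CPM in null-labelled and 62.0 CPM in control-labelled cells, mature B-like cells had 22.2 CPM in null-labelled and 88.1 CPM in control-labelled cells, and mixed-stage B-like cells had 30.8 CPM in null-labelled and 149.5 CPM in control-labelled cells. Mixed-stage neutrophil-like cells were nearly without it, with 2 UMIs in null-labelled and 9 UMIs in control-labelled cells, and no fold is given.

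Ezh2 is known to be induced in dividing cells, so the classes were split by the share of UMIs that 25 proliferation genes took, at 0.5% of a cell's UMIs. Cells at or above that share were 34.4% of null-labelled and 58.0% of control-labelled HSPC-like cells, 17.7% of null-labelled and 46.6% of control-labelled monocyte-like cells, and 33.8% of null-labelled and 56.2% of control-labelled erythroid-like cells. Hemoglobin counts in the total and took 55.7% of UMIs in null-labelled and 35.2% in control-labelled erythroid-like cells. Null-labelled erythroid-like cells thus fall under 0.5% more readily. The shares were close in GMP-like cells, at 78.7% of null-labelled and 79.7% of control-labelled cells, and in B precursor-like cells, at 48.3% of null-labelled and 50.1% of control-labelled cells. In immature neutrophil-like cells they were 41.6% of null-labelled and 35.4% of control-labelled cells. The part of these shares in the level of Ezh2 was not tested.

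Among proliferating cells alone, Ezh2 was called lower in 6 of the 6 classes described here. Such cells were few in HSPC-like (21 null-labelled and 29 control-labelled), monocyte-like (28 null-labelled and 265 control-labelled) and GMP-like cells (48 null-labelled and 286 control-labelled). These parts do not reach the 50 cells of both libraries asked of whole classes. Proliferating HSPC-like cells had 54.2 CPM in null-labelled and 230 CPM in control-labelled cells, where 7.77% of all genes were called lower. Proliferating GMP-like cells had 30.1 CPM in null-labelled and 146 CPM in control-labelled cells, against a background of 11.9% lower, and immature neutrophil-like cells had 23.5 CPM in null-labelled and 110 CPM in control-labelled cells, against 12.1%. All 3 ratios lay below 1 with their whole intervals. Monocyte-like proliferating cells had 33.7 CPM in null-labelled and 225 CPM in control-labelled cells (6.67-fold lower, 4.42 to 10.6), against 18.0% of genes. Erythroid-like ones had 45.5 CPM in null-labelled and 267 CPM in control-labelled cells (5.87-fold lower, 5.10 to 6.78), against 29.9%, and B precursor-like ones had 159 CPM in null-labelled and 665 CPM in control-labelled cells (4.19-fold lower, 3.56 to 4.95), against 13.5%. In monocyte-like and erythroid-like cells these folds were smaller than the 15.4-fold and 9.08-fold of the whole classes.

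Cells below the proliferation share were mixed. B precursor-like cells kept the difference, at 56.4 CPM in null-labelled and 412 CPM in control-labelled cells (7.30-fold lower, 5.09 to 10.8), and so did HSPC-like cells, at 25.6 CPM in null-labelled and 129 CPM in control-labelled cells. The HSPC-like values rest on 40 null-labelled and 21 control-labelled cells. In non-proliferating immature neutrophil-like cells Ezh2 stood at 6.53 CPM in null-labelled and 5.56 CPM in control-labelled cells, a ratio of 1.17 (0.648 to 2.10). Non-proliferating erythroid-like cells had 4.36 CPM in null-labelled and 6.52 CPM in control-labelled cells, a ratio of 0.669 (0.384 to 1.16). Non-proliferating monocyte-like cells kept it on few UMIs, 3 in null-labelled and 39 in control-labelled cells, 13.6-fold lower (4.33 to 68.9). So the libraries overlapped in the 2 classes where Ezh2 was under 7 CPM in both, and lay apart in B precursor-like, HSPC-like and monocyte-like cells. Non-proliferating GMP-like cells, 13 null-labelled and 73 control-labelled, are not described. In immature neutrophil-like cells as a whole the call of Ezh2 ended with cells thinned to 1000 UMIs, at a log2 ratio of -0.57 against -2.01 unthinned.

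**Figure D3:**
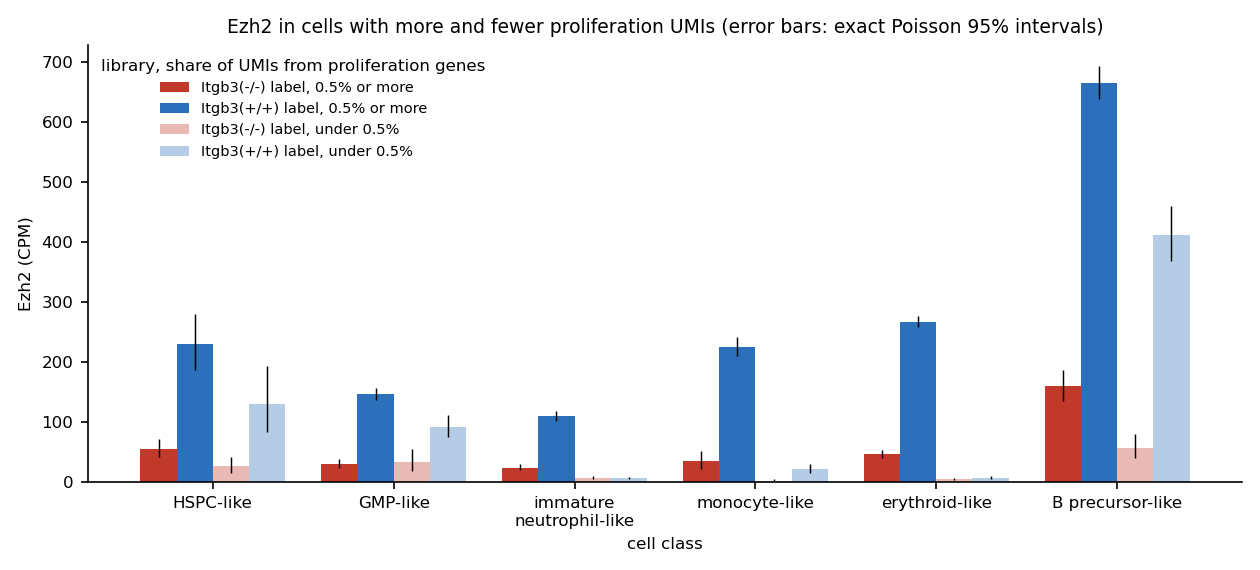
Ezh2 level in CPM in 6 classes, split into cells with 0.5% or more (solid bars) and under 0.5% (pale bars) of UMIs from proliferation genes, null-labelled library in red and control-labelled library in blue, with exact 95% counting intervals. The solid red bars reach at most 159 CPM and each stands below its solid blue neighbour, which reaches 665 CPM in B precursor-like cells.

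Asxl1, the BAP1 partner, was within 2-fold over all cells, at 28.2 CPM (26.4 to 30.1) in null-labelled and 31.9 CPM (30.5 to 33.4) in control-labelled cells, a ratio of 0.885 (0.817 to 0.957) that passed to the other side of 1 under TMM factors. It was the member with the narrowest spread over classes in both libraries, 2.21-fold in null-labelled cells and 3.01-fold in control-labelled cells. The only call was in mature B-like cells, at 40.1 CPM in null-labelled and 18.0 CPM in control-labelled cells (2.22-fold, 1.55 to 3.23), and it fell short of 2-fold when each cell was classed by its own markers (log2 ratio 0.69). Mixed-stage neutrophil-like cells were near the line on the other side, at 28.5 CPM in null-labelled and 54.2 CPM in control-labelled cells (ratio 0.527, 0.365 to 0.749). In monocyte-like cells Asxl1 stood at 41.7 CPM in null-labelled and 31.2 CPM in control-labelled cells, a ratio of 1.34 (1.04 to 1.71). The intervals of the other 7 classes included 1.

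The 23 other genes of Polycomb and ASXL-BAP1 with enough UMIs had a median log2 ratio of -0.40 over all cells. Among them 0 were higher and 2 lower, against 8.49% and 18.2% of all genes. The lower ones were the chromobox genes Cbx2, at 0.358 CPM in null-labelled and 1.30 CPM in control-labelled cells, and Cbx8, at 1.16 CPM in null-labelled and 5.56 CPM in control-labelled cells. The histone binder Rbbp4, the most counted, stood at 107 CPM in null-labelled and 141 CPM in control-labelled cells. The glycosyltransferase gene Ogt had 69.9 CPM in null-labelled and 129 CPM in control-labelled cells. Eed and Suz12, the subunits that work with EZH2, were within 2-fold.

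Jak2, the cytokine receptor kinase, was higher in the null-labelled library, at 59.8 CPM (57.2 to 62.5) from 2004 UMIs in null-labelled against 26.6 CPM (25.3 to 28.0) from 1572 UMIs in control-labelled cells, a ratio of 2.25 (2.10 to 2.40). The ratio was above 1 in 10 of 10 classes, its interval was above 1 in 8 and it passed 2 in 6. With cells thinned to 1000 UMIs the direction turned round in HSPC-like cells (log2 ratio -0.29 against 0.94) and in mixed-stage B-like cells (-0.24 against 0.15). After thinning, only 1 of 61 null-labelled and 1 of 50 control-labelled HSPC-like cells had a Jak2 UMI. In mixed-stage B-like cells 3 of 144 null-labelled and 9 of 366 control-labelled cells did, so the thinned values are too few to set a direction. As classed, monocyte-like cells had the largest ratio, 3.61 (3.02 to 4.31), at 136 CPM in null-labelled and 37.8 CPM in control-labelled cells. That ratio rests in part on 1 of 3 null-labelled sub-clusters, led by MHC class II genes, at 313 CPM against 59.3 and 117 CPM in the other 2, and without it, an alternative chosen after seeing the data, the log2 ratio was 1.07 against 1.85, below the 1.34 of erythroid-like cells. Erythroid-like cells stood at 82.5 CPM in null-labelled and 32.5 CPM in control-labelled cells (2.54-fold, 2.29 to 2.82). The immature neutrophil-like class was level, at 22.1 CPM in null-labelled and 18.5 CPM in control-labelled cells (1.19-fold, 0.966 to 1.47), and so was the mixed-stage B-like class, at 25.3 CPM in null-labelled and 22.8 CPM in control-labelled cells (1.11-fold, 0.519 to 2.31).

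GMP-like cells had 32.0 CPM of Jak2 in null-labelled and 13.8 CPM in control-labelled cells, and HSPC-like cells had 43.9 CPM in null-labelled and 22.9 CPM in control-labelled cells, a ratio of 1.92 (1.07 to 3.68) under the line. In the mixed-stage neutrophil-like class it stood at 42.5 CPM in null-labelled and 19.3 CPM in control-labelled cells, past 2-fold, which ended under TMM factors (log2 ratio 0.80, against 1.14). B precursor-like cells had 24.1 CPM in null-labelled and 11.3 CPM in control-labelled cells, and mature B-like cells 57.9 CPM in null-labelled and 25.6 CPM in control-labelled cells. The B precursor-like call ended as a mean over cells (log2 ratio 0.50), and the mature B-like one with at most 5% mitochondrial UMIs (log2 ratio 0.63) or cells thinned (0.72). In T and NK-like cells the ratio was 1.46 (1.04 to 2.07), at 70.04 CPM in null-labelled and 47.9 CPM in control-labelled cells. Monocyte-like cells led the order in the null-labelled library, a place that rests on the sub-cluster at 313 CPM, whereas T and NK-like cells led in the control-labelled library with an interval that overlapped theirs.

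The 27 other genes of JAK-STAT signalling had a median log2 ratio of 0.14 over all cells. Of these, 7 were higher and 2 lower, against 8.49% and 18.2% of all genes. The higher ones included the feedback inhibitors Socs1, Socs3 and Cish and the kinase target Pim1. STAT factors carry the signal to the nucleus. Stat2 had 127 CPM in null-labelled and 12.3 CPM in control-labelled cells. Stat3 had 115 CPM in null-labelled and 43.3 CPM in control-labelled cells. Socs1, which inhibits JAK2, had 96.2 CPM in null-labelled and 7.79 CPM in control-labelled cells, a ratio of 12.3 (11.2 to 13.6). The SOCS family and CISH act in the same feedback. Socs3 had 41.7 CPM in null-labelled and 4.74 CPM in control-labelled cells. Cish had 9.07 CPM in null-labelled and 3.20 CPM in control-labelled cells, and Pim1, the most counted gene of the list, 346 CPM in null-labelled and 107 CPM in control-labelled cells. The lower ones were receptor genes. Csf3r, for granulocyte colony-stimulating factor, had 13.8 CPM in null-labelled and 89.1 CPM in control-labelled cells. Il6st had 4.81 CPM in null-labelled and 11.8 CPM in control-labelled cells. Ptpn6, a phosphatase that damps JAK signals, had 116 CPM in null-labelled and 145 CPM in control-labelled cells. Stat2 is also an interferon response gene. Csf3r is itself a marker used to name the mature neutrophil class, which held 0 null-labelled cells. The Csf3r level and that empty class are therefore not independent, and the part of cell classes in the value was not tested.

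Trp53, which encodes p53, showed no difference beyond counting error over all cells, at 68.7 CPM (65.9 to 71.5) in null-labelled and 70.1 CPM (68.0 to 72.3) in control-labelled cells, a ratio of 0.979 (0.930 to 1.03) whose side of 1 depended on scaling. That average joined opposite differences. It was higher in erythroid-like cells, at 152 CPM (145 to 159) in null-labelled and 74.1 CPM (70.2 to 78.2) in control-labelled cells, a ratio of 2.05 (1.91 to 2.21). Under TMM factors, which undo the shift of the median erythroid gene, its log2 ratio was 2.00 against 1.04; with a mean over cells it was 2.18 and with each cell classed by its own markers 2.59. Under TMM factors the log2 ratio of Tet2 in this class was 2.04 against 1.08, that of Jak2 2.31 against 1.34 and that of Ezh2 -2.22 against -3.18. Trp53 was called lower in 7 of the other 8 classes with enough UMIs, and in T and NK-like cells, the eighth, the interval lay below 1 (0.447 to 0.754).

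The differences were widest in immature neutrophil-like and monocyte-like cells, whose intervals overlapped. Immature neutrophil-like cells stood at 2.40 CPM in null-labelled and 15.6 CPM in control-labelled cells, 6.50-fold lower (3.95 to 11.4), which as a mean over cells moved to a log2 ratio of -1.35, against -2.70. In monocyte-like cells Trp53 was 6.31-fold lower (4.32 to 9.56), at 11.2 CPM in null-labelled and 70.7 CPM in control-labelled cells. GMP-like cells had 23.9 CPM in null-labelled and 90.3 CPM in control-labelled cells (3.77-fold lower, 2.91 to 4.98). HSPC-like cells had 71.0 CPM in null-labelled and 244 CPM in control-labelled cells (3.43-fold lower, 2.68 to 4.41), the highest class of the control-labelled library. The B classes were lower by 2.28-fold (1.86 to 2.82) for precursor-like, 2.26-fold (1.54 to 3.41) for mixed-stage and 2.15-fold (1.76 to 2.64) for mature cells. Precursor-like cells had 68.4 CPM in null-labelled and 156 CPM in control-labelled cells, mixed-stage ones 61.5 CPM in null-labelled and 139 CPM in control-labelled cells, and mature ones 57.9 CPM in null-labelled and 125 CPM in control-labelled cells. T and NK-like cells had 72.0 CPM in null-labelled and 124 CPM in control-labelled cells. The mature B-like call ended with at most 5% mitochondrial UMIs (log2 ratio -0.98) and with cells thinned (-0.84), the HSPC-like call with cells thinned (-0.94) and the B precursor-like call as a mean over cells (-0.84), with the direction kept.

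As a result the order of classes differed. In null-labelled cells the erythroid-like class led and overlapped none, followed by T and NK-like, HSPC-like and the 3 B classes, which overlapped each other. In control-labelled cells the erythroid-like class was seventh of 10, below HSPC-like, B, T and NK-like and GMP-like cells, and overlapped the monocyte-like class. Neutrophil classes were lowest in both libraries.

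Erythroid-like cells were therefore divided by the share of hemoglobin among their UMIs, which grows as red cell precursors mature. The null-labelled class was more mature by this measure, with hemoglobin at 55.7% of UMIs in null-labelled and 35.2% in control-labelled cells. Under 20% hemoglobin, in 104 null-labelled and 455 control-labelled cells, Trp53 stood at 190 CPM in null-labelled and 150 CPM in control-labelled cells, a ratio of 1.27 (1.14 to 1.42). From 20 to 60%, in 264 null-labelled and 716 control-labelled cells, it stood at 213 CPM in null-labelled and 18.3 CPM in control-labelled cells, a ratio of 11.6 (9.31 to 14.7). Over 60%, in 594 null-labelled and 941 control-labelled cells, it stood at 108 CPM in null-labelled and 4.93 CPM in control-labelled cells, a ratio of 21.9 (14.7 to 34.0). Per 1000000 UMIs that were not hemoglobin, the 3 ratios were 1.27, 12.2 and 25.2.

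Finer steps of hemoglobin share show where the libraries part. In cells with under 1% hemoglobin Trp53 was alike, at 228 CPM in 36 null-labelled and 226 CPM in 104 control-labelled cells. From 1 to 5% it was 109 CPM in null-labelled and 148 CPM in control-labelled cells, and from 5 to 20% it was 163 CPM in null-labelled and 80.1 CPM in control-labelled cells. In the 5 steps from 20 to 100% null-labelled cells had 183, 233, 236, 195 and 26.6 CPM, highest from 40 to 70% and lowest over 80% hemoglobin. Control-labelled cells in those steps had 23.2, 13.8, 9.10, 6.00 and 2.66 CPM, a decline at every step. Cells under 0.5% proliferation UMIs, at 123 CPM in null-labelled and 8.41 CPM in control-labelled erythroid-like cells, and those above it, at 190 CPM in null-labelled and 97.3 CPM in control-labelled cells, were both higher in the null-labelled library. Hemoglobin is part of the total in this split, so cells on the same side of it may differ in stage between the libraries. Over sub-clusters of erythroid-like cells, the null-labelled library had a median of 144 CPM in 17 and the control-labelled library a median of 12.0 CPM in 26, with overlapping ranges (0 to 373 and 0 to 229 CPM).

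**Figure D4:**
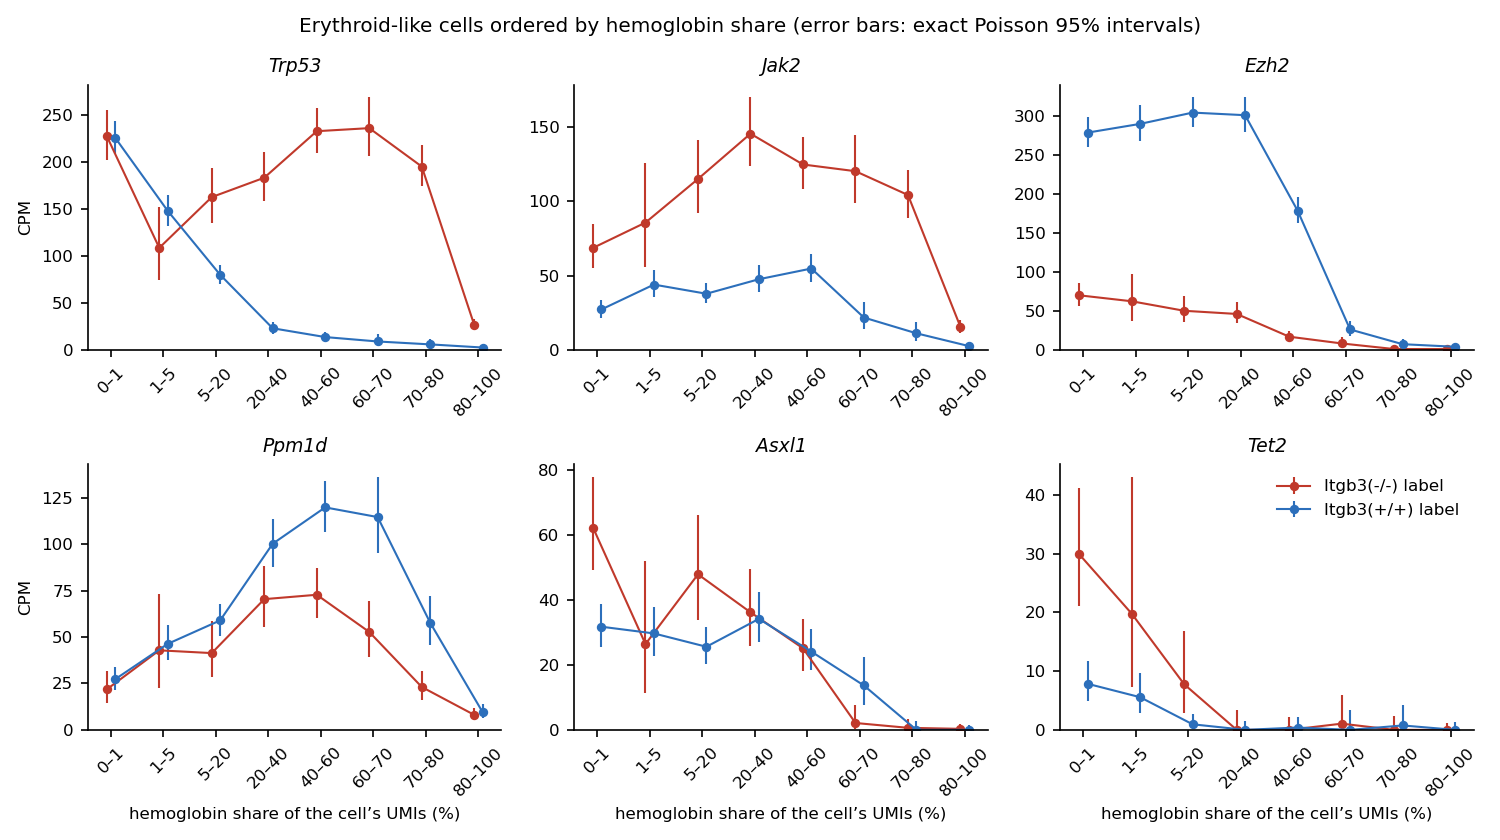
Level in CPM of 6 of the genes in erythroid-like cells ordered by the hemoglobin share of each cell's UMIs, null-labelled library in red and control-labelled library in blue, with exact 95% counting intervals. The Trp53 lines start together at 228 and 226 CPM and part from 5% hemoglobin on, where the red line stays near 200 CPM up to 80% while the blue one drops to 23.2 CPM at 20 to 40%.

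The calls of the other members within erythroid stages can be read against the background. Under 20% hemoglobin 9.8% of genes were called higher and 15.4% lower, from 20 to 60% the shares were 9.82% and 35.8%, and over 60% they were 17.1% and 36.6%. The members called were Tet2 and Jak2 higher and Ezh2 lower in the first stage, Jak2 and Trp53 higher and Ezh2 lower in the second, and Jak2 and Trp53 higher and Ezh2 and Ppm1d lower in the last. Jak2 was higher in all 3 stages, at 86.4 CPM in null-labelled and 35.7 CPM in control-labelled cells, then 133 CPM in null-labelled and 51.3 CPM in control-labelled cells, then 57.3 CPM in null-labelled and 9.08 CPM in control-labelled cells. The last ratio was 6.31 (4.62 to 8.79). Ezh2 was lower in all 3, at 62.6 CPM in null-labelled and 292 CPM in control-labelled cells, then 28.7 CPM in null-labelled and 238 CPM in control-labelled cells, then 2.42 CPM in null-labelled and 9.87 CPM in control-labelled cells. So Jak2 and Ezh2 kept their directions at a like hemoglobin share, which may not be a like stage between the libraries. Over these 3 stages Ezh2 declined in both libraries.

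Tet2 was counted in erythroid-like cells almost solely under 20% hemoglobin, with 49 of 50 UMIs in null-labelled and 38 of 40 in control-labelled cells, at 21.2 CPM in null-labelled and 4.60 CPM in control-labelled cells (4.60-fold, 2.95 to 7.22). The ratio at this stage was larger than the 2.11 of the whole class. Asxl1 at this stage stood at 52.7 CPM in null-labelled and 28.8 CPM in control-labelled cells (1.83-fold, 1.46 to 2.28), and from 20 to 60% it was level at 29.5 CPM in null-labelled and 28.9 CPM in control-labelled cells. Dnmt3a had 18 UMIs in null-labelled and 44 UMIs in control-labelled cells under 20% hemoglobin and 8 or fewer in all of each later stage. The median gene shifted by -0.14, -0.55 and -0.57 on the log2 scale in the 3 stages, against which these ratios stand.

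Ppm1d, the phosphatase that dephosphorylates p53, was within 2-fold in 9 of 9 classes with enough UMIs. Over all cells it had 21.6 CPM (20.1 to 23.3) in null-labelled and 31.7 CPM (30.3 to 33.2) in control-labelled cells, a ratio of 0.682 (0.625 to 0.744). The interval was below 1 in erythroid-like cells, at 35.2 CPM in null-labelled and 62.3 CPM in control-labelled cells (ratio 0.564, 0.501 to 0.634), although this turned to a log2 ratio of 0.14 under TMM factors. It was below 1 in monocyte-like cells, at 11.2 CPM in null-labelled and 21.2 CPM in control-labelled cells, and in mature B-like cells, at 17.1 CPM in null-labelled and 31.2 CPM in control-labelled cells. In the B precursor-like class, one of the highest in both libraries, Ppm1d was level at 36.7 CPM in null-labelled and 34.98 CPM in control-labelled cells.

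Across erythroid stages Ppm1d went up and down in both libraries alike. In null-labelled cells it stood at 21.8 CPM under 1% hemoglobin, reached 72.8 CPM at 40 to 60% and ended at 8.06 CPM over 80%. In control-labelled cells the same steps gave 27.3, 120 and 9.49 CPM. Over 60% hemoglobin it was called lower, at 19.6 CPM in null-labelled and 44.99 CPM in control-labelled cells (2.30-fold lower, 1.83 to 2.91). With hemoglobin left out of the total, the ratio of Ppm1d at this stage was 0.502 (0.397 to 0.632). That is just within 2-fold, so the call ended.

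Over all cells 6 of 21 p53 targets and regulators with enough UMIs were higher and 3 lower, against 8.49% and 18.2% of all genes. Their median log2 ratio was 0.13. The cell cycle inhibitor Cdkn1a had 28.1 CPM in null-labelled and 7.74 CPM in control-labelled cells, and the death gene Bbc3, which encodes PUMA, 23.3 CPM in null-labelled and 7.40 CPM in control-labelled cells. CDKN1A halts the cell cycle and PUMA starts cell death. Sesn1 had 49.0 CPM in null-labelled and 17.9 CPM in control-labelled cells. Trp53inp1 had 82.4 CPM in null-labelled and 41.2 CPM in control-labelled cells. Aen had 24.8 CPM in null-labelled and 11.9 CPM in control-labelled cells and Pmaip1, which encodes NOXA, 5.43 CPM in null-labelled and 2.27 CPM in control-labelled cells. The lower ones included a subunit of ribonucleotide reductase. This gene, Rrm2b, stood at 11.9 CPM in null-labelled and 24.3 CPM in control-labelled cells. Phlda3 had 0.866 CPM in null-labelled and 2.20 CPM in control-labelled cells, and Gdf15 had 1 UMI in null-labelled and 34 UMIs in control-labelled cells. The most counted targets were within 2-fold, Btg2 at 105 CPM in null-labelled and 195 CPM in control-labelled cells and Bax at 74.8 CPM in null-labelled and 89.9 CPM in control-labelled cells.

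Within erythroid stages the targets were called higher in 3 of 14 under 20% hemoglobin, 6 of 12 from 20 to 60% and 8 of 10 over 60%. Among all genes the shares called higher were 9.8%, 9.82% and 17.1%. The median log2 ratios of the targets were 0.31, 0.70 and 2.55. Their lower calls numbered 1, 2 and 0, against 15.4%, 35.8% and 36.6% of all genes. The minimum of 30 UMIs is taken over both libraries together. Over 60% hemoglobin, genes such as Aen (7.79 CPM in null-labelled and 0.592 CPM in control-labelled cells) could therefore pass through their null-labelled UMIs alone. The rise of the targets' shares and medians over the stages thus depends in part on which genes passed. Over 60% hemoglobin Bbc3 had 38.6 CPM in null-labelled and 4.74 CPM in control-labelled cells (8.15-fold, 5.34 to 12.99), and Bax, the pore-forming death protein, had 24.2 CPM in null-labelled and 3.36 CPM in control-labelled cells. Ccng1 had 13.8 CPM in null-labelled and 1.78 CPM in control-labelled cells. Trp53inp1 had 106 CPM in null-labelled and 18.2 CPM in control-labelled cells, and Mdm2, the ubiquitin ligase of p53, had 20.2 CPM in null-labelled and 7.10 CPM in control-labelled cells. Mdm4 was level at 4.15 CPM in null-labelled and 4.34 CPM in control-labelled cells, and Btg2 was at a ratio of 0.504 (0.452 to 0.562). The stages with more higher calls were those where Trp53 itself differed most, which describes the same cells, and a link was not tested. Interferon response genes were higher in 18 of 18 in each of the 3 stages, and their part was not tested.

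Of 13 DNA damage kinases and PPM1D substrates, 1 was higher and 6 lower over all cells, against 8.49% and 18.2% of all genes. Their median log2 ratio was -0.80. Atm stood alone on the higher side, at 25.1 CPM in null-labelled and 10.1 CPM in control-labelled cells (2.48-fold, 2.23 to 2.76). H2afx, the histone that ATM phosphorylates at breaks, had 126 CPM in null-labelled and 258 CPM in control-labelled cells. Rad50 and Nbn belong to the break-sensing MRN complex. Rad50 had 23.9 CPM in null-labelled and 61.7 CPM in control-labelled cells. Nbn had 6.33 CPM in null-labelled and 14.5 CPM in control-labelled cells. The kinase genes Prkdc and Chek1 were lower as well. Prkdc had 2.72 CPM in null-labelled and 12.6 CPM in control-labelled cells. Chek1 had 5.85 CPM in null-labelled and 14.7 CPM in control-labelled cells. Mdc1 had 9.67 CPM in null-labelled and 20.7 CPM in control-labelled cells. Mapk14, which encodes the p38 kinase and is among the most counted, had 37.0 CPM in null-labelled and 64.2 CPM in control-labelled cells. Chek1 and H2afx are also S-phase genes. Of the 25 proliferation genes 0 were higher and 7 lower (Top2a, Mcm2, Mcm4, Mcm5, Tyms, Rrm2 and Stmn1), against 8.49% and 18.2% of all genes. The most counted proliferation genes, Hmgb2 and Mki67, were within 2-fold.

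Of 35 other genes whose mutation is known in clonal blood expansion, 3 were higher and 4 lower over all cells, with a median log2 ratio of -0.16. Nf1 had 20.5 CPM in null-labelled and 8.25 CPM in control-labelled cells. Setbp1 had 3.25 CPM in null-labelled and 1.05 CPM in control-labelled cells. Atm was the remaining one. Idh1, Idh2, the cohesin gene Smc1a, at 97.1 CPM in null-labelled and 217 CPM in control-labelled cells, and the corepressor Bcorl1, at 2.84 CPM in null-labelled and 14.7 CPM in control-labelled cells, were lower. Npm1, at 766 CPM in null-labelled and 976 CPM in control-labelled cells, and Gnas, at 413 CPM in null-labelled and 499 CPM in control-labelled cells, were the most counted and within 2-fold. With 8.49% and 18.2% of all genes called, the shares of this list were near the background.

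Over the 20 sums of class and library, log2(CPM + 5) of the members was compared by Pearson's r as a description, since the points share 2 libraries and their depth. Trp53 and Ppm1d ran together (r = 0.768), as did Ezh2 with Ppm1d (r = 0.720) and with Trp53 (r = 0.695). Jak2 and Ezh2 ran apart (r = -0.551). Among 9012 genes, those most like Tet2 were Mvp (0.942), Tnip1 (0.927) and Sin3b (0.917). For Ezh2 they were Ctc1 (0.937), Rhno1 (0.925) and Baz1b (0.918), and for Trp53 they were Pdlim1 (0.908), Pcyt2 (0.904) and Pms2 (0.891). Jak2 was most like Phf11a (0.866), Mt2 (0.828) and Secisbp2l (0.784), and Ppm1d most like Gclc (0.930), Cep70 (0.913) and Mical3 (0.892). Dnmt3a was most like Zmym2 (0.921), Btbd9 (0.905) and Zfp729b (0.905). Asxl1 had no close match, with Ctnnbip1 (0.706), Csnk1e (0.693) and Notch1 (0.692) the nearest.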

How the data were processed

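Bone marrow cells were profiled with 10x Genomics 3′ chemistry in 2 libraries, 1 per genotype. The authors deposited raw UMI counts per gene and barcode, made with Cell Ranger 3.0 on build mm10, with Seurat also named, per the submitters' processing notes; the matrix headers give software version 3.1.0. Of the gene IDs, 30934 (99.6%) were in GENCODE vM21. Cells with under 200 genes or over 10% mitochondrial UMIs (1307 null-labelled, 30.5%, and 3479 control-labelled, 27.3%) were removed. So were the 71 and 690 cells with the highest Scrublet scores, numbers preset by a doublet rate of 0.8% per 1000 cells. The 2000 most variable genes without the 7 members, 30 components and 15 neighbours gave 34 clusters and 152 sub-clusters (scanpy 1.11.5, leidenalg 0.10.2), with no integration of libraries. A sub-cluster took a class or stage from fixed markers only where no other class had more markers among its top 10 genes; scoring thresholds were set after the data had been seen, and so were the finer hemoglobin steps. UMIs were summed per library and class as CPM, with exact Poisson intervals and exact binomial intervals of ratios (scipy 1.17.1); with 1 library per genotype there is no test. Alternatives included TMM factors of edgeR 4.0.16. Named genes were the 7 members, of each list those past 2-fold over all cells plus the 2 most counted, and the 3 genes most like each member, with 1 list gene not reported here; p53 targets named within erythroid stages were chosen after their values were seen. The members and lists were chosen with earlier results of these data known. Intervals treat UMIs as independent molecules and cover neither cell capture nor free RNA, and deeper null-labelled cells give steadier values per cell.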

Additional observations from a re-analysis of the deposited data

Results flagged for a closer look

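Opposite differences in 2 classes marked 2 genes, and in each case the difference between the classes was not tested, because each genotype had 1 library. Dnmt3a had a log2 ratio of null-labelled over control-labelled CPM of 1.39 in monocyte-like cells and -1.11 in T and NK-like cells. In monocyte-like cells its null-labelled sub-clusters lay within the range of the control-labelled ones. Trp53 had a log2 ratio of 1.04 in erythroid-like cells and -2.70 in immature neutrophil-like cells.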

How the results depend on the processing

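No paired analysis was possible because each genotype had 1 library. Log2 ratios over all cells were, as reported, 1.13 for Tet2, -0.02 for Dnmt3a, -0.18 for Asxl1, 1.17 for Jak2, -0.03 for Trp53, -0.55 for Ppm1d and -2.72 for Ezh2. With all barcodes, Tet2 was 1.01, Jak2 1.02, Trp53 -0.16 and Ppm1d -0.69. With at most 5% mitochondrial UMIs, Asxl1 was -0.31 and Trp53 0.29, and without hemoglobin in the total Trp53 was 0.057. Under TMM factors, in the same gene order, the values were 1.36, 0.22, 0.059, 1.40, 0.21, -0.32 and -2.48. As a mean over cells they were 0.99, -0.18, -0.45, 1.34, 0.38, -0.40 and -2.60, and with cells thinned to 1000 UMIs 0.92, -0.37, -0.50, 1.33, 0.24, 0.0115 and -2.32, so the 2-fold call of Tet2 ended under both. Pairs of gene and class called higher numbered 4 when thinned and 8 with each cell classed by itself, against 15, with fewer pairs to call in both. Dnmt3a in HSPC-like cells reversed to 0.44 with each cell classed by itself, a grouping of 400 null-labelled and 181 control-labelled cells. Of these, 51 and 39 were in the class as clustered, and the cause of the reversal was not tested. Under TMM factors the Polycomb list had 1 gene higher (0 as reported), the DNA damage list 3 lower (6) and the proliferation list 3 lower (7). Of 33 calls, TMM factors kept 30 and the total without hemoglobin 32, and leaving out the 10 deepest cells of each class kept 31. Thinning kept 22 of the 27 calls it could test, and classing each cell by itself 21 of 28. Erythroid Tet2 fell short of 2-fold in 4 alternatives (log2 ratio 0.28 to 0.86). In erythroid-like cells TMM factors shifted every gene by 0.97, which turned Ppm1d to 0.14, Dnmt3a to 0.27 and Asxl1 to 0.78. Classes of 50 to 61 cells, such as HSPC-like, and genes with under 50 UMIs limit what these counts can separate.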
